A study of Homo sapiens with 6 samples.

Results

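The genes described here are 36 that encode the enzymes, carriers and regulators of glycolysis together with the oxygen-sensing pathway and its best-known targets. They were listed by symbol and not by their values in these arrays, though earlier results of these data were known when they were chosen. Each was represented by the probe set annotated with that gene symbol alone, and where several existed by the one of highest mean over the 6 arrays. A total of 28 of the 36 were measured in this way, out of 14232 genes measured in all. The 8 others had no probe set of their own: GAPDH, PGAM1, SLC16A1, SLC16A3, CA9 and ANKRD37 were in no annotated probe set, and SLC2A3 and EGLN1 only in probe sets shared with another gene, so these 8 were not measured. The cells were MO3.13, a human line that the submitters call an oligodendroglioma line and that is known as a hybrid of human oligodendrocytes with a rhabdomyosarcoma line, grown in DMEM with 10% fetal bovine serum. Klotho-treated cells (3 arrays) were kept for 3.5 h in serum-free DMEM with 0.4 µg/mL of mouse Klotho made as a recombinant protein. Control cells (3 arrays) were described with the serum-containing growth medium only, so that Klotho and the absence of serum cannot be told apart here. Whether the 3 arrays of each group are separate cultures is not in the labels, and the p-values therefore rest on a spread between samples that may be only technical.

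Glycolysis splits glucose into pyruvate in the cytosol. Glucose enters through GLUT carriers, hexokinase traps it as a phosphate, phosphofructokinase commits it to breakdown, and pyruvate is either sent to the mitochondria or reduced to lactate, which leaves through monocarboxylate carriers. The transcription factor HIF-1 ties this pathway to oxygen. Its alpha subunit is hydroxylated by the EGLN prolyl hydroxylases and destroyed while oxygen is present, and when it escapes destruction it raises most glycolytic genes along with genes of blood vessel growth, pH control and collagen modification. Growth factor signals through PI3K, AKT, mTOR and MYC act on the same genes, and Klotho is described as a restraint on insulin and IGF1 signalling. HIF1A protein is set mainly by its stability, which transcript arrays do not read.

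HIF-1 binds DNA at a short core, of which ACGTG is the commonest form. It was searched on both strands in RefSeq promoter windows of GRCh38.p14, each reaching from 250 bases before to 50 bases after an annotated start, and a match inside CACGTG, the element also bound by MYC and USF factors, was counted as well. Windows were found by symbol for 26 of the 28 measured genes (not for VEGFA and NDRG1), and 14 of the 26 (53.8%) held the core in some window, against 3333 of 11386 measured genes with a window (29.3%). Counted by window, 18 of 49 (36.7%) held it, against 21.4% of all 35116 windows in the table. In 6 of the 26 genes a match lay within CACGTG. The 250 bases before the start are shown for the genes whose upstream part held at least 2 separate matches, since these are the members with the most upstream matches. Each is written 5′ to 3′ in the direction of transcription, with the matches in capitals and overlapping matches joined.
LDHA: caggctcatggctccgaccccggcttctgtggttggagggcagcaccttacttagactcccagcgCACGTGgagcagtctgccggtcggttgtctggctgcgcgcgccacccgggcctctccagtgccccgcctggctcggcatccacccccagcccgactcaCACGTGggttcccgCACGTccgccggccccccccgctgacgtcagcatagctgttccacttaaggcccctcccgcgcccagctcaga
PGK1: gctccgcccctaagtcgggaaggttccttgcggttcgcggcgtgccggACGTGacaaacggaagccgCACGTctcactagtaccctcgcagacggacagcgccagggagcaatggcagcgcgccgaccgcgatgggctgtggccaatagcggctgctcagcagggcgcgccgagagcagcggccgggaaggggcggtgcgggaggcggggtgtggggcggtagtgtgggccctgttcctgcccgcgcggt
HK2: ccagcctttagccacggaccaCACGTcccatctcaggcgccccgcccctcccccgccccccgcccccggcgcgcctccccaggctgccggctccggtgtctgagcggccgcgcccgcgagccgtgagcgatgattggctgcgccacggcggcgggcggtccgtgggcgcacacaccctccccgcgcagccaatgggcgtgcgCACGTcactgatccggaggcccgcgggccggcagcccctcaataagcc
ALDOC: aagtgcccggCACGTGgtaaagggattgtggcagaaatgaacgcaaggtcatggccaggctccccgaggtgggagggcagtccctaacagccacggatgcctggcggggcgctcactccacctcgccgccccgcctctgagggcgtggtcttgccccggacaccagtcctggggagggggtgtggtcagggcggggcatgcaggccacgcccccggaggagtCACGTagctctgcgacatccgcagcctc
PDK1: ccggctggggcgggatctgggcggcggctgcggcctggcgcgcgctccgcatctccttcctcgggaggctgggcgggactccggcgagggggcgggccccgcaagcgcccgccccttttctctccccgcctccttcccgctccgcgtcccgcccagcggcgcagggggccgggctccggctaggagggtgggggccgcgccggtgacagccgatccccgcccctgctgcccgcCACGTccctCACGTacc
The LDHA stretch lies at chr11:18394313-18394562 on the plus strand and holds 3 matches, which begin 185, 87 and 73 bases before the start, the first 2 of them within CACGTG. The PGK1 stretch lies at chrX:78103998-78104247 on the plus strand, with matches 202 and 183 bases before the start. The HK2 stretch is at chr2:74833877-74834126 on the plus strand, with matches 229 and 48 bases before the start. The ALDOC stretch is at chr17:28576896-28577145 on the minus strand, with matches 240 and 28 bases before the start, the first within CACGTG. The PDK1 stretch is at chr2:172555840-172556089 on the plus strand, with matches 17 and 8 bases before the start. Each of the 5 lies upstream of the annotated start of its own window. HK2, LDHA and PDK1 had 2 windows each, and the one with the most separate upstream matches is shown. A match in these letters is not evidence of binding, which was not measured.

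Both groups were compared with limma on the deposited log2 values of all 22011 probe sets, with Benjamini-Hochberg adjustment over all of them, to ask whether transcripts of sugar breakdown or of the hypoxia response differ after 3.5 h. No member passed: 0 of 28 had a limma adjusted p under 0.05, and 0 of 22011 probe sets did (0%), with a smallest adjusted p among members of 0.998. At an unadjusted p under 0.05 there was 1 member, TPI1, against 2.07% of all genes; it was higher in treated cells, as were 0.963% of all genes at that p, and 0 members were lower, against 1.11% of all genes. For 3 members, TPI1, HK1 and GPI, the 3 treated values all lay on 1 side of the 3 control values, which is 10.7% against 7.89% of all genes. TPI1 lay apart upwards, as 2.59% of all genes did, and HK1 and GPI downwards, as 5.3% did. Treated cells had the lower mean for 17 of 28 members (60.7%), close to the 62.6% of all genes, and the median difference, treated minus control, was -0.05 on the log2 scale against -0.03 over all genes. With each array centred on its median, 14 of 28 members and 42.7% of all genes were lower. The median of the members was then 0.00, against 0.02 over all genes. Since the arrays read cultures in bulk, fewer expressing cells and less RNA per cell cannot be told apart.

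**Figure D1:**
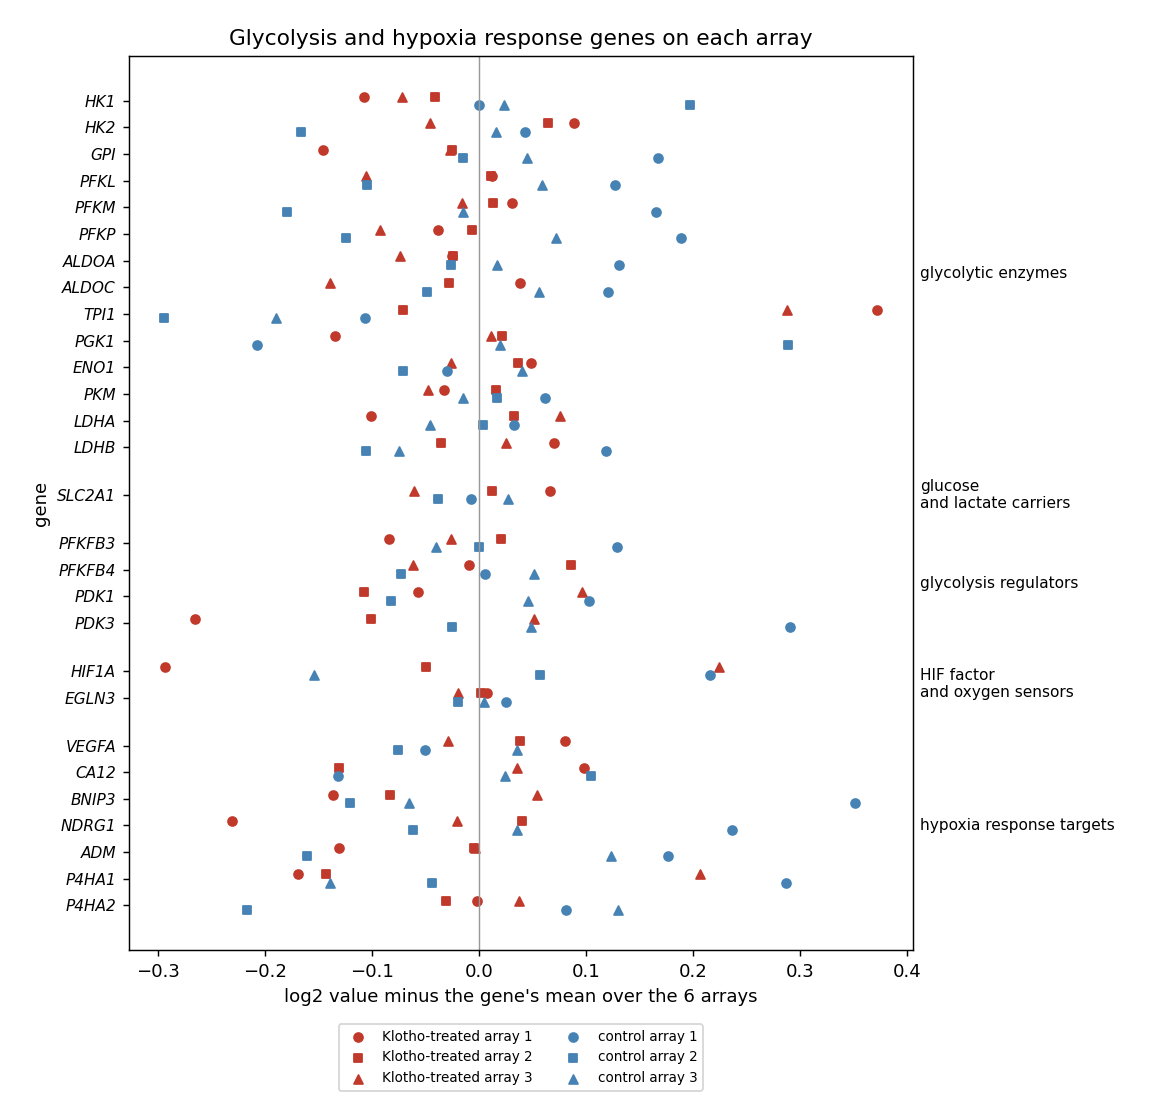
Each point is the log2 value of a measured gene on an array minus that gene's mean over the 6 arrays (x axis), with 1 gene per row grouped by role; Klotho-treated arrays are red and control arrays blue, with a marker shape per array number. Treated and control points do not overlap for TPI1, HK1 and GPI, and control array 1 is the highest array for 16 of the 28 genes.

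Most differences were small. The intervals given here rest on the same spread between arrays, which may be only technical, so they need not bound a difference between cultures. A difference under 1.1-fold in either direction was found for 24 of the 28 members (85.7%), against 78.9% of all genes. The 95% interval lay within a 1.5-fold change for 27 of 28 members, against 91.7% of all genes, and within a 1.2-fold change for 10 of 28 (35.7%), against 21.6% of all genes. The median standard error of a member's difference was 0.09, against 0.11 over all genes. The member outside the 1.5-fold bound was TPI1. The intervals apply to 1 gene at a time, not to the set of members jointly.

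**Figure D2:**
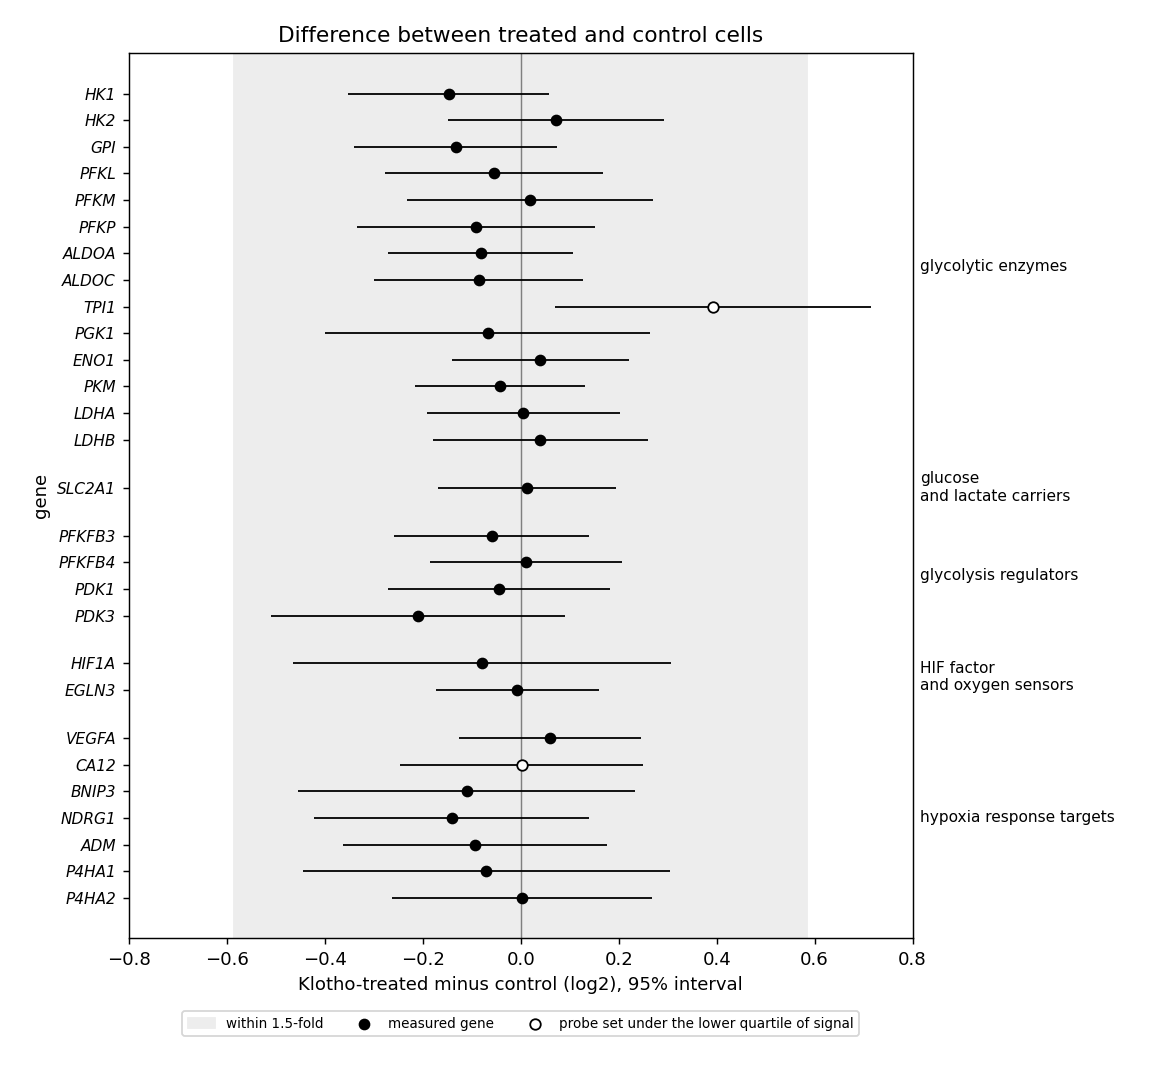
Points are the differences Klotho-treated minus control (log2, x axis) and bars their 95% intervals from limma, with 3 arrays per group and 1 measured gene per row; the shaded band is a 1.5-fold change either way and open points are probe sets under the lower quartile of signal. All intervals except that of TPI1 lie inside the band, and that of TPI1, from 0.07 to 0.72, is the one interval that does not reach 0.

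Hexokinases add the phosphate that keeps glucose in the cell. HK1, the form found in nearly all tissues, read 7.99, 8.05 and 8.02 in treated cells, against 8.09, 8.29 and 8.12 in control cells. All 3 treated values lay below the controls, though the nearest pair differed by little and the groups overlapped under all 3 other scalings tried (median centring, quantile normalization and cyclic loess), and the difference of -0.15 (95% interval -0.35 to 0.06) did not pass. HK2, the form that growth factors and HIF-1 raise, read 8.22, 8.19 and 8.08 in treated cells, against 8.17, 7.96 and 8.14 in control cells. Those groups overlapped, and the difference was 0.07 (95% interval -0.15 to 0.29). GPI, which converts glucose 6-phosphate to fructose 6-phosphate, read 10.50, 10.62 and 10.62 in treated cells, against 10.82, 10.63 and 10.69 in control cells. The treated values again lay below the controls, by the narrowest of gaps, with a difference of -0.13 (95% interval -0.34 to 0.08).

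Phosphofructokinase is the main control point of the pathway and is built from liver, muscle and platelet type subunits. PFKL averaged 7.85 ± 0.07 in treated and 7.90 ± 0.12 in control cells (log2, SD, n = 3 each), PFKM 9.55 ± 0.02 and 9.54 ± 0.17 in the same order, and PFKP 8.78 ± 0.04 and 8.88 ± 0.16. Their differences were -0.05, 0.02 and -0.09, all with intervals that include 0 and stay within 1.5-fold. The aldolases, which split the 6-carbon sugar, differed by -0.08 for ALDOA, the muscle and general form, and by -0.09 for ALDOC, the brain form. ALDOA read 11.13, 11.13 and 11.08 in treated cells, against 11.29, 11.13 and 11.17 in control cells. Its groups met at the level of control array 2. PFKM and ALDOA each also occur in 1 probe set shared with another gene, and ENO1 in 2, and these were not used.

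TPI1, triosephosphate isomerase, which interconverts the 3-carbon sugars, had the largest difference of the members. It read 3.58, 3.14 and 3.50 in treated cells, against 3.11, 2.92 and 3.02 in control cells. The treated values were all higher, but treated array 2 lay next to control array 1, and the treated arrays spread over more than the controls. The difference was 0.39 (95% interval 0.07 to 0.72), with an unadjusted p of 0.0241 and an adjusted p of 0.998 in limma. The probe set was dim, under the lower quartile (4.70 on the log2 scale) of the signals of all probe sets. TPI1 is an enzyme that every cell uses, and a bound on so dim a signal need not bound the transcript.

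**Figure D3:**
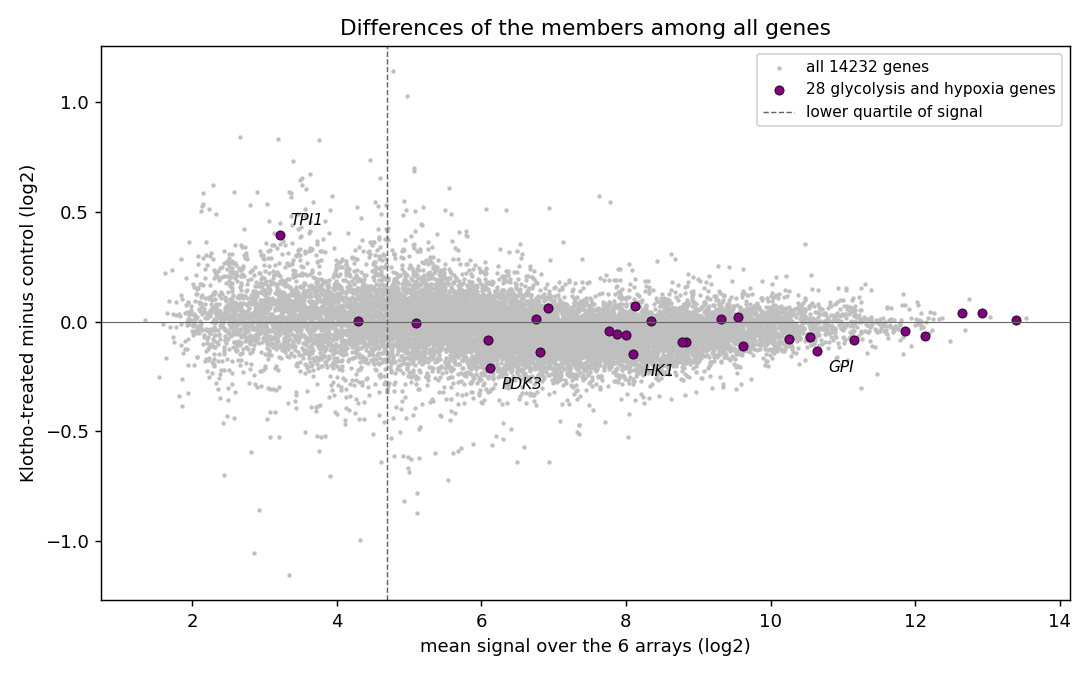
Each point is a gene, with its mean signal over the 6 arrays (log2, x axis) and its difference Klotho-treated minus control (log2, y axis); grey points are all 14232 genes, purple points the 28 measured members, and the dashed line is the lower quartile of signal of all probe sets. TPI1, left of the line, has the largest member difference (0.39), and the members to its right lie between -0.21 and 0.07.

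Of the enzymes of the pay-off phase, which makes ATP and pyruvate, PGK1, ENO1 and PKM were measured, and GAPDH and PGAM1 were not. The measured ones, and the lactate dehydrogenase genes after them, were bright on these arrays and differed little. PGK1, the ATP-forming phosphoglycerate kinase, read 12.00, 12.15 and 12.14 in treated cells, against 11.92, 12.42 and 12.15 in control cells. Control arrays 1 and 2 were its lowest and highest arrays, so all treated values fell between controls, and the difference was -0.07 (95% interval -0.40 to 0.26). ENO1, enolase, averaged 12.95 ± 0.04 in treated and 12.91 ± 0.06 in control cells (log2, SD, n = 3 each). PKM, pyruvate kinase of muscle and growing cells, averaged 11.83 ± 0.03 in treated and 11.88 ± 0.04 in control cells. The lactate dehydrogenase subunit genes LDHA, which favours lactate formation, and LDHB, which is typical of oxidative tissue, differed by 0.01 (95% interval -0.19 to 0.20) and 0.04 (95% interval -0.18 to 0.26). LDHA read 13.29, 13.43 and 13.47 in treated cells, against 13.43, 13.40 and 13.35 in control cells, so that its lowest and highest arrays were both treated ones. Of the 14 measured enzymes, 11 had a mean signal above the upper quartile of all probe sets (8.04), as 24.6% of all genes did.

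Several of these enzymes have processed pseudogenes, whose transcripts may hybridise to the same probes. The RefSeq table lists pseudogenes named after 17 of the 36 members, among them 65 for GAPDH and 13 for PGAM1, which were not measured, and 46 for BNIP3, 6 for LDHA, 5 for PKM, 4 each for ENO1 and TPI1, and 2 each for ALDOA and PGK1. Their share in these signals was not tested.

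Of the carriers only SLC2A1, the GLUT1 glucose carrier of most growing cells, was measured. It read 9.38, 9.32 and 9.25 in treated cells, against 9.30, 9.27 and 9.34 in control cells. The control values lay within the range of the treated ones, and the difference of 0.01 had a 95% interval of -0.17 to 0.19, or 0.889-fold to 1.14-fold. GLUT3 (SLC2A3) and the lactate carriers MCT1 (SLC16A1) and MCT4 (SLC16A3) were not measured.

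Among the regulators, PFKFB3 and PFKFB4 make fructose 2,6-bisphosphate, the activator of phosphofructokinase, and PDK1 and PDK3 switch off pyruvate dehydrogenase. PFKFB3 read 7.92, 8.03 and 7.98 in treated cells, against 8.13, 8.00 and 7.96 in control cells. Its groups overlapped, with a difference of -0.06 (95% interval -0.26 to 0.14), and that of PFKFB4 was 0.01 (95% interval -0.19 to 0.21). PDK1 averaged 7.75 ± 0.11 in treated and 7.79 ± 0.09 in control cells (log2, SD, n = 3 each). PDK3 read 5.86, 6.03 and 6.18 in treated cells, against 6.42, 6.10 and 6.17 in control cells. Treated array 3 reached the level of the controls. The PDK3 difference, -0.21 (95% interval -0.51 to 0.09), was the lowest of the members and had an unadjusted p of 0.140.

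The oxygen-sensing genes did not pass either. HIF1A, the oxygen-regulated subunit of HIF-1, read 9.97, 10.21 and 10.48 in treated cells, against 10.48, 10.32 and 10.11 in control cells. The groups overlapped over most of their range, and the difference of -0.08 had a 95% interval of -0.46 to 0.31. The range over the 6 arrays was 0.52 for HIF1A, against a median of 0.26 over the members and 0.33 over all genes. EGLN3, the hydroxylase that HIF-1 itself raises, read 5.10, 5.10 and 5.08 in treated cells, against 5.12, 5.08 and 5.10 in control cells. Its range of 0.04 over the arrays was the smallest of the members, and the difference was -0.01 (95% interval -0.17 to 0.16).

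The hypoxia targets outside glycolysis comprised 3 with a higher and 4 with a lower mean in treated cells, and 0 of 7 passed. VEGFA, the blood vessel growth factor, read 7.00, 6.96 and 6.89 in treated cells, against 6.87, 6.84 and 6.95 in control cells. Control array 3 lay within the treated values, and the difference was 0.06 (95% interval -0.13 to 0.25). CA12, a carbonic anhydrase of the cell surface that helps to clear acid, averaged 4.29 ± 0.12 in treated and 4.29 ± 0.12 in control cells (log2, SD, n = 3 each), from a probe set under the lower quartile of signal. NDRG1, a stress and differentiation gene, differed by -0.14 (95% interval -0.42 to 0.14), and ADM, which encodes the vessel-relaxing peptide adrenomedullin, by -0.09 (95% interval -0.36 to 0.18).

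BNIP3, a mitochondrial protein of mitophagy, read 9.48, 9.53 and 9.67 in treated cells, against 9.96, 9.49 and 9.55 in control cells. Control array 1 stood above the other five, and the difference was -0.11 with all 6 arrays and 0.04 without that one. P4HA1, a catalytic subunit of the collagen prolyl hydroxylase, read 10.37, 10.40 and 10.75 in treated cells, against 10.83, 10.50 and 10.40 in control cells. Treated array 3 and control array 1 stood above the other four, and the difference of -0.07 became 0.06 without control array 1. P4HA2, its sister subunit, differed by less than 0.01 on its brighter probe set (95% interval -0.26 to 0.27) and likewise on a second one (95% interval -0.46 to 0.48).

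Much of the spread among members lay between arrays of the same group. The median deviation of the members from their own means was -0.03, -0.01 and -0.02 on treated arrays 1 to 3, against 0.11, -0.05 and 0.02 on control arrays 1 to 3. Over all genes it was -0.04, -0.01 and 0.00 on the treated arrays, against 0.05, -0.03 and 0.02 on the control arrays. Control arrays 1 and 2 were thus the highest and the lowest for the members, and every treated array lay between them. Control array 1 was the highest of the 6 for 16 of 28 members and for 33.8% of all genes. Control array 2 was the lowest for 10 members and treated array 1 for 9, against 23.0% and 28.5% of all genes. Among the 7 hypoxia targets the medians were -0.13, -0.03 and 0.04 on the treated arrays, against 0.18, -0.08 and 0.04 on the control arrays. HIF1A and EGLN3 together lay at -0.14, -0.02 and 0.10 on the treated arrays, against 0.12, 0.02 and -0.07 on the control arrays. These joint values mostly follow HIF1A, whose range over the arrays was 0.52, against 0.04 for EGLN3. The median of all 28 members, -0.05 with every array, was 0.00 without control array 1 and -0.07 without control array 2. Over all genes the median difference was -0.03, -0.01 and -0.06 in the same order.

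**Figure D4:**
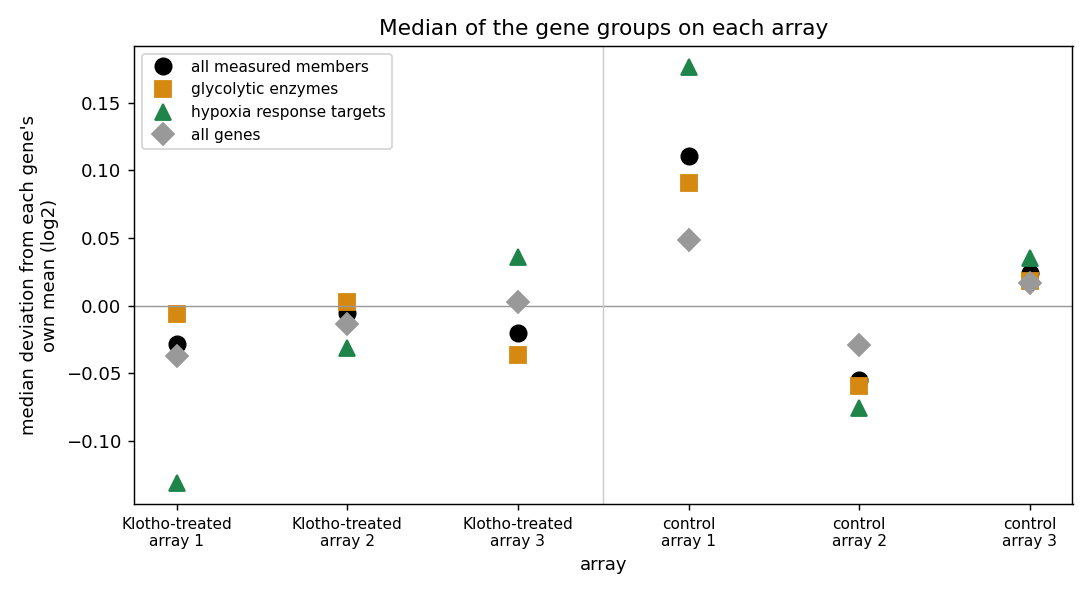
Points are the median deviation (log2, y axis) of the genes of a group from their own means over the 6 arrays, on each array (x axis, treated left of control), for all 28 measured members (black), the 14 glycolytic enzymes (orange), the 7 hypoxia targets (green) and all genes (grey). The hypoxia targets range from -0.13 on treated array 1 to 0.18 on control array 1, and the members as a whole from -0.05 on control array 2 to 0.11 on control array 1.

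The genes with and without the ACGTG core were also set side by side. The 14 members with it had a median difference of -0.07, with 10 lower in treated cells, and the 12 without it a median of 0.00, with 6 lower. Over all genes the medians were -0.04 with the core (3333 genes) and -0.03 without it (8053 genes). Of these, 2256 of the 3333 with the core and 5032 of the 8053 without it were lower in treated cells. Whether the members with and without the core differ was not tested. Of the 5 genes whose sequences are shown above, LDHA and HK2 had a higher mean and PGK1, ALDOC and PDK1 a lower mean in treated cells, with differences between -0.09 and 0.07.

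Other genes of sugar metabolism and of the hypoxia response, taken from lists of pathway members, gave no call either, with 0 past the adjusted threshold in each of the following 6 groups and limma adjusted p values of 0.998 or more. Of 21 other measured glycolysis genes and isoforms, 9 had a higher and 12 a lower mean in treated cells, with a median of -0.01. Groups did not overlap for 3 of the 21 (14.3%, against 7.89% of all genes), namely SLC2A4 and PFKFB1, lower in treated cells, and GAPDHS, higher, and 2 had an unadjusted p under 0.05, as 2.07% of all genes did. These were SLC2A4, the insulin-responsive glucose carrier GLUT4, with 6.00 ± 0.09 in treated and 6.31 ± 0.19 in control cells (log2, SD, n = 3 each) and a difference of -0.30 (95% interval -0.59 to -0.02), and PFKFB1, the liver form of the bifunctional enzyme, with -0.20 (95% interval -0.38 to -0.02) on a dim probe set. Gluconeogenesis and glycogen genes (17 measured, 11 lower, median -0.05) had G6PC3, a glucose 6-phosphatase (-0.13), and GYS1, muscle-type glycogen synthase (-0.18), nearest to the threshold. Groups did not overlap for 3 of the 17 (17.6%), which were G6PC3, PYGM and PCK2, all lower in treated cells. The pentose phosphate genes (6 measured, 3 lower, median -0.01) had TKT, transketolase (-0.07), and TKTL1 (-0.07). Pyruvate dehydrogenase and citric acid cycle genes (22 measured, 16 lower, median -0.02) had MDH2, mitochondrial malate dehydrogenase (-0.08), and DLD, a shared dehydrogenase subunit (0.09). Groups did not overlap for 0 of the 6 pentose phosphate genes and for 1 of the 22, IDH3G (4.55%).

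Other parts of the HIF pathway (13 measured, 9 lower, median -0.05) had EGLN2, a further oxygen-sensing hydroxylase, with 6.14 ± 0.09 in treated and 6.28 ± 0.05 in control cells (log2, SD, n = 3 each), and the coactivator gene CREBBP (-0.16). The difference of EGLN2 was -0.15 (95% interval -0.34 to 0.05). In 2 of the 13 genes the groups lay apart (15.4%, against 7.89% of all genes), EGLN2 and EPAS1, the gene of the HIF-2 alpha subunit, both lower in treated cells. EPAS1 averaged 6.16 in treated and 6.25 in control cells, with a 95% interval of the difference from -0.26 to 0.07. GAPDHS, PYGM, PCK2, IDH3G and EPAS1 are named for their groups lying apart, after their values were seen. Of 35 other hypoxia targets, 21 had a lower mean in treated cells, with a median of -0.02, and 0 had groups that did not overlap. JMJD6, a protein hydroxylase (-0.17), and ANGPTL4, a secreted inhibitor of lipoprotein lipase (0.16), had the smallest p there.

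The cell label was checked against marker genes. Of 9 measured oligodendrocyte lineage markers all 9 had a signal above the lower quartile, as 11309 of all 14232 genes did. Among them 1, CNP, lay above the upper quartile, as 24.6% of all genes did. Of 8 skeletal muscle markers 7 lay above the lower quartile and 6, among them MYOD1 and MYOG, above the upper quartile. Astrocyte (6 measured), neuron (4) and microglia and blood markers (6) had 3, 3 and 2 above the lower quartile, and 0 above the upper quartile. The brightness of a probe set depends on its own affinity as well as on the transcript, so these positions do not rank the markers or the cell types against each other. The lower quartile is no limit of detection, so a signal above it does not show that a marker is expressed. No marker passed the adjusted threshold in limma, and the muscle gene DES, at 8.32 ± 0.06 in treated and 8.58 ± 0.09 in control cells (log2, SD, n = 3 each), was the one marker with an unadjusted p under 0.05. Its part in the values of the members was not tested.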

How the data were processed

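The authors deposited 1 table of log2 values for 6 arrays, with 1 value per probe set; per the submitters' processing notes it was made with RMA. Software, version and filters: not given in the sources used here. Of 22011 probe sets, 14432 carry 1 gene symbol in the platform annotation, 2408 several and 5171 none; 14404 of the first matched RefSeq by Entrez number, no symbol needed updating, and 14232 genes resulted. Groups and replicate numbers came from the sample titles.

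limma 3.58.1 (R 4.3.3) gave the differences, treated minus control, and 2-sided p-values (lmFit, eBayes, Benjamini-Hochberg over all probe sets, threshold 0.05), with 95% intervals from the moderated variance. The counter of motif matches was tested on made-up sequences with known answers. The naming rule gave array values for members with an unadjusted p under 0.05 or groups that do not overlap and for the first listed member of each role, and the 2 genes of smallest p from each other list; HK2, ALDOA, PGK1, LDHA, PDK3, EGLN3, BNIP3 and P4HA1 were added array by array after their values were seen. The members and lists were chosen with earlier results of these data known. A planned comparison of paralogous proteins was not made. Precision is limited by the number of arrays. No scan dates were used here. The deviations of same-numbered treated and control arrays from their group means correlated at -0.18, 0.06 and -0.14. With 3 arrays per group these values cannot decide whether the replicate numbers pair the arrays, and the labels do not say. The main fit treated them as unpaired.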

Additional observations from a re-analysis of the deposited data

How the results depend on the processing

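Across 17 alternatives (3 scalings, dropping dim probe sets, 2 variance models, array weights, a gene-only fit, means over probe sets, the replicate block and arrays left out), 0 of 474 member values passed the adjusted threshold in limma. The sign held under every alternative for 9 members (HK1, HK2, GPI, ALDOA, TPI1, PDK3, VEGFA, NDRG1 and ADM, TPI1 under the 16 that kept its dim probe set), and 19 took the other sign under some. Dropping dim probe sets, the 2 variance models, the gene-only fit and the replicate block leave a difference unchanged by construction. Means over probe sets can change only P4HA2. A sign could therefore change only under the scalings, the array weights and the arrays left out, and for P4HA2 under those means. The number of members at an unadjusted p under 0.05 in limma was 1 (TPI1) with all arrays and 0 without the dim probe sets, which removes TPI1. It was 0 with array quality weights and 0 with both control array 1 and treated array 3 removed. With a single array left out it was 0 to 1 (0 when treated array 1 or 3, or control array 2 or 3, was removed). The cause was not tested. Over all probe sets, 703 of 22011 had such a p with all arrays and 436 of 16508 without the dim ones. With array quality weights 1644 of 22011 had it, with 1 array left out 577 to 1200, and with both arrays removed 1127. The number of members with groups that do not overlap was 3 with all arrays and 3 to 9 with 1 left out, where fewer arrays make overlap rarer. It was 7 leaving out treated array 3 (25%, against 24.3% of all genes), 9 leaving out control array 2 (32.1% against 22.9%), 6 leaving out control array 3 (21.4% against 16%), and 9 with both control array 1 and treated array 3 removed (32.1% against 33.1%). HK1 lay apart under none of the 3 other scalings, and ALDOA lay apart with cyclic loess. Lower in treated cells were 17 of 28 members as deposited, 14 with median centring, 15 with quantile normalization and 16 with cyclic loess. Over all genes the shares were 62.6%, 42.7%, 46.8% and 50.3% in the same order. The median of the members was -0.05, 0.00, 0.00 and -0.02, against -0.03, 0.02, 0.01 and -0.0007 over all genes. With the replicate block, 1 member had an unadjusted p under 0.05 and 25 of 28 had intervals within 1.5-fold, against 27 without it, and it changed no call; not every treated array correlated best with the control array of its number. Dim probe sets (TPI1 and CA12) limit what their signal says of the transcript.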
